A study of Mus musculus with 20 samples.

Results

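The genes described here are 40 genes of the mitotic cell cycle, found by their symbols in a table of 51810 mouse genes. The list was set by gene name, and it was chosen with earlier results of these data known. It holds 23 genes of mitosis, 15 genes of S phase and 2 transcription factors of the cycle. All 40 passed the filter on low counts, which left 28932 genes for testing.

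The study measured poly(A) RNA of sorted medullary thymic epithelial cells (mTECs), the thymic stromal cells that present tissue-restricted antigens to developing T cells. Thymi came from mice aged 4 to 5 weeks, EpCAM+ cells were enriched with magnetic beads, and 75000 primary mTECs were sorted per preparation. There were 4 groups of 3 libraries each: cHyper mTEChi, WT mTEChi, cHyper mTEClo and WT mTEClo. The genotypes are labelled Trp53-cHyper and Trp53-WT, and neither the meaning of cHyper, nor the cells that carry the allele, nor the sort gates are stated in the labels. No treatment is labelled in any group. The 2 cell types were compared within each genotype, and cHyper with WT within each cell type. Nothing in the labels ties a library to its own mouse, so part of the variation among libraries behind the p-values may be technical.

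Library totals ran from 22023800 to 47926607 fragments, with replicate 3 the shallowest library of every group. Replicate 3 of every group also had the Y-linked gene Ddx3y at 0 CPM (fragment counts scaled by the library total, after scaling between libraries), against 63.5 to 85.3 CPM in replicates 1 and 2. The X-linked gene Xist had 1013 to 1760 CPM in replicate 3, against 3.74 to 8.36 CPM in replicates 1 and 2. Replicate 3 thus came from mice of another sex than replicates 1 and 2. Sex and depth therefore move together with replicate number, equally in all 4 groups. Trp53 itself had 129 to 138 CPM in cHyper mTEChi, against 97.97 to 107 CPM in WT mTEChi, and 154 to 177 CPM in cHyper mTEClo, against 136 to 138 CPM in WT mTEClo. The cell type labels were matched by their markers. Aire, which drives tissue-restricted antigen expression, had 1281 to 1923 CPM in mTEChi and 11.3 to 51.4 CPM in mTEClo, and Ccl21a, a chemokine of mTEClo, had 328 to 1012 CPM in mTEChi and 6079 to 8114 CPM in mTEClo.

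A dividing cell copies its DNA in S phase and parts the copies in mitosis. Before S phase, Cdt1 and Cdc6 load the Mcm2 to Mcm7 helicase on origins, and cyclin E with its kinase helps to fire them. Mitotic genes peak later: the DREAM complex represses them in resting cells, and MYBL2 and FOXM1 then switch them on through promoter elements called CHR. The p53 protein, which Trp53 encodes, acts on the same promoters indirectly, since its target p21 (Cdkn1a) favours assembly of DREAM. In the thymic medulla, mTEClo include dividing precursors and mTEChi include the mature Aire+ cells, most of which no longer divide.

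Promoter windows of RefSeq (build GRCm38.p6, from 250 bases before to 50 bases after a start site) were matched for 32 of the 40 genes. Searched on both strands, the CHR (TTTGAA) was present for 14 of 19 mitosis genes (73.7%) and 1 of 12 S phase genes (8.33%), against 20.2% of 27025 genes. The CCAAT box (CCAAT) was present for 17 of 19 mitosis genes (89.5%), 8 of 12 S phase genes (66.7%) and 41.1% of all genes. An E2F site (TTTCCCGC, TTTGGCGC, TTTGCCGC or TTTCGCGC) was present for 1 of 19 mitosis genes (5.26%), 6 of 12 S phase genes (50%) and 2.6% of all genes. E2F matches on opposite strands can overlap, and a match in letters is not a bound site. The 6 windows printed here set 3 mitosis genes beside 3 S phase genes, since these groups part in the data below. Capitals mark every CHR, CCAAT box and E2F site on either strand, and each window reads 5′ to 3′ on the strand of its gene.

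The mitosis genes are Cdk1 at chr10:69352863-69353162 (minus strand), Ccnb1 at chr13:100786437-100786736 (minus strand) and Plk1 at chr7:122159185-122159484 (plus strand). Cdk1 holds 2 CHR matches, 3 CCAAT boxes and 1 E2F site, Ccnb1 holds 2 CCAAT boxes and no CHR, and Plk1 holds 1 CHR and 1 CCAAT box.
Cdk1: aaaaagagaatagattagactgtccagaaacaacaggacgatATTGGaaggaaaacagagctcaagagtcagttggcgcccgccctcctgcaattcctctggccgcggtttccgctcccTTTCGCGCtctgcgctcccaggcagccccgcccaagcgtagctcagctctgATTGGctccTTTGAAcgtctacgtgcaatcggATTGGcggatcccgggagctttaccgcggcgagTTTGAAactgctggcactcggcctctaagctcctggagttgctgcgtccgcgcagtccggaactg
Ccnb1: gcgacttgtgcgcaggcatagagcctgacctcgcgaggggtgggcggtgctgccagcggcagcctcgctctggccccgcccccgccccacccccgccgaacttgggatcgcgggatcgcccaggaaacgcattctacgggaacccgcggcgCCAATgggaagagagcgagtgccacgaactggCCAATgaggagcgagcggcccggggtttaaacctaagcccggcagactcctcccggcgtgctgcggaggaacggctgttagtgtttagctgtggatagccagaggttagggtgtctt
Plk1: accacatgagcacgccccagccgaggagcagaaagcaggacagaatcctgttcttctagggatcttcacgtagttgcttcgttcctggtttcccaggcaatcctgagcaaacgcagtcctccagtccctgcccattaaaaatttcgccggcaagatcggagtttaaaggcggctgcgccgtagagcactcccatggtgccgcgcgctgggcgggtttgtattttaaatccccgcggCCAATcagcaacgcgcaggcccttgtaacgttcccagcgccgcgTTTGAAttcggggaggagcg

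The S phase genes are Mcm2 at chr6:88898731-88899030 (minus strand), Mcm5 at chr8:75109259-75109558 (plus strand) and Ccne1 at chr7:38107441-38107740 (minus strand). Mcm2 is the one S phase gene whose window held a CHR, Mcm5 holds 3 CCAAT boxes and 2 overlapping E2F matches, and Ccne1 holds none of these motifs.
Mcm2: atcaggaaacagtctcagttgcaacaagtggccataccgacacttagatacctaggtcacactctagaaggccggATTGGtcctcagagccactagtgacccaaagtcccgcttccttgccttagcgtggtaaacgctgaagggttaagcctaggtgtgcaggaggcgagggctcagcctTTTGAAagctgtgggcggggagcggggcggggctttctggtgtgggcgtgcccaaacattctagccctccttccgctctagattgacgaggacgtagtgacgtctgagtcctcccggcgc
Mcm5: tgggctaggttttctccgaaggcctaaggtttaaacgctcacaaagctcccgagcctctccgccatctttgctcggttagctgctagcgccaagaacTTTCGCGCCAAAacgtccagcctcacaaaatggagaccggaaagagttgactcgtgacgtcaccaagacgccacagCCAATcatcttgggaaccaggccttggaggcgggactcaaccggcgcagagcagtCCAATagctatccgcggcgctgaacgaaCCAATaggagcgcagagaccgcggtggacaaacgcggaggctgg
Ccne1: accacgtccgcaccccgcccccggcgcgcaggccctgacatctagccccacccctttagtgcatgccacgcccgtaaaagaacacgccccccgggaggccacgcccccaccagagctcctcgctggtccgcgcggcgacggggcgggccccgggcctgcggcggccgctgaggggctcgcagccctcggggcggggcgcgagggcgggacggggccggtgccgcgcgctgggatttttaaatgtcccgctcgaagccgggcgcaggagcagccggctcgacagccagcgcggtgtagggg

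Levels between genes were compared in TPM, which divides by gene length. In mTEChi the 3 highest mean levels were those of Gins2, a subunit of the GINS part of the replicative helicase, Mki67, the antigen of proliferating cells, and Pcna, the sliding clamp of DNA polymerases. Gins2 averaged 63.9 ± 2.62 TPM in cHyper mTEChi and 61.8 ± 2.98 TPM in WT mTEChi, Mki67 averaged 53.6 ± 5.58 and 56.3 ± 8.705 TPM, and Pcna averaged 51.2 ± 1.96 and 50.1 ± 1.17 TPM in the same order of groups (SD, n = 3 each). The lowest was Cdc6, a loader of the Mcm helicase, at 2.06 ± 0.425 TPM in cHyper mTEChi and 1.92 ± 0.263 TPM in WT mTEChi. In mTEClo, Pcna led with 50.2 ± 5.12 TPM in cHyper and 49.7 ± 4.402 TPM in WT. Gins2 and Mki67 differed by less than the SD of Mki67 in WT mTEChi, and Mki67 and Pcna did so in both genotypes of mTEChi, so their order is not resolved there.

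Some counts share sequence with a neighbour. The exons of 12 of the 40 genes overlap exons of another gene in the table, and 9 of the 12 overlap only genes on the opposite strand. The libraries mark strand, but the strand setting of the counting is not stated in them or in the labels. Gins2 has the widest overlap: 67.3% of its exonic bases lie across from Gse1. The next are Kif20a, a midzone kinesin, with 29.3% across from Cdc23, Ube2c with 22.8% across from Tnnc2, and Ccne2 with 17.4% across from Ints8. Ccna2 has 12.5% across from Exosc9, and Prc1 has 11.1% across from Rccd1. A share of exonic bases is not the share of fragments in doubt. Gse1 had 68998 fragments in all libraries, against 39801 for Gins2, while Tnnc2 had 309, against 7943 for Ube2c. The values of these 6 genes are uncertain by an amount that was not tested, with the widest overlap in Gins2.

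The comparison of mTEChi with mTEClo asks how the cycle genes differ between the mature and the less mature compartment. The genes of mitosis were higher in mTEChi as a group, in both genotypes. In cHyper, all 23 mitosis genes rose in mTEChi, by 1.60-fold to 3.62-fold. In WT, 22 of the 23 rose, by 1.63-fold to 4.28-fold, and the exception was the cyclin Ccnb2. The S phase genes did not follow: in cHyper 4 of 15 rose and 4 fell, and in WT 3 of 15 rose and 6 fell. Here and throughout, a gene rose or fell when edgeR's quasi-likelihood test gave an adjusted p (Benjamini-Hochberg, over all 28932 genes) under 0.05.

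Over the 40 genes, 28 rose and 4 fell in cHyper mTEChi, where 38.7% of all tested genes rose and 25.8% fell. In WT mTEChi 26 rose and 6 fell, against 40.2% and 29.4% of all tested genes. A rise of at least 2-fold was called for 18 of the 40 genes in cHyper, against 32% of all tested genes, and for 22 of the 40 genes in WT, against 33.5%. The median log2 difference of the mitosis genes was 1.28 in cHyper and 1.60 in WT, and that of the S phase genes was -0.025 in cHyper and -0.15 in WT. All tested genes had a median of 0.13 in cHyper and 0.12 in WT. The 3 mTEChi libraries did not overlap the 3 mTEClo libraries for all 23 mitosis genes in cHyper and for 22 of 23 in WT. Groups that did not overlap made up 40.3% of all tested genes on the higher side in cHyper and 41.8% in WT. In bulk RNA, a larger share of cycling cells and more of each RNA per cell cannot be told apart.

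**Figure D1:**
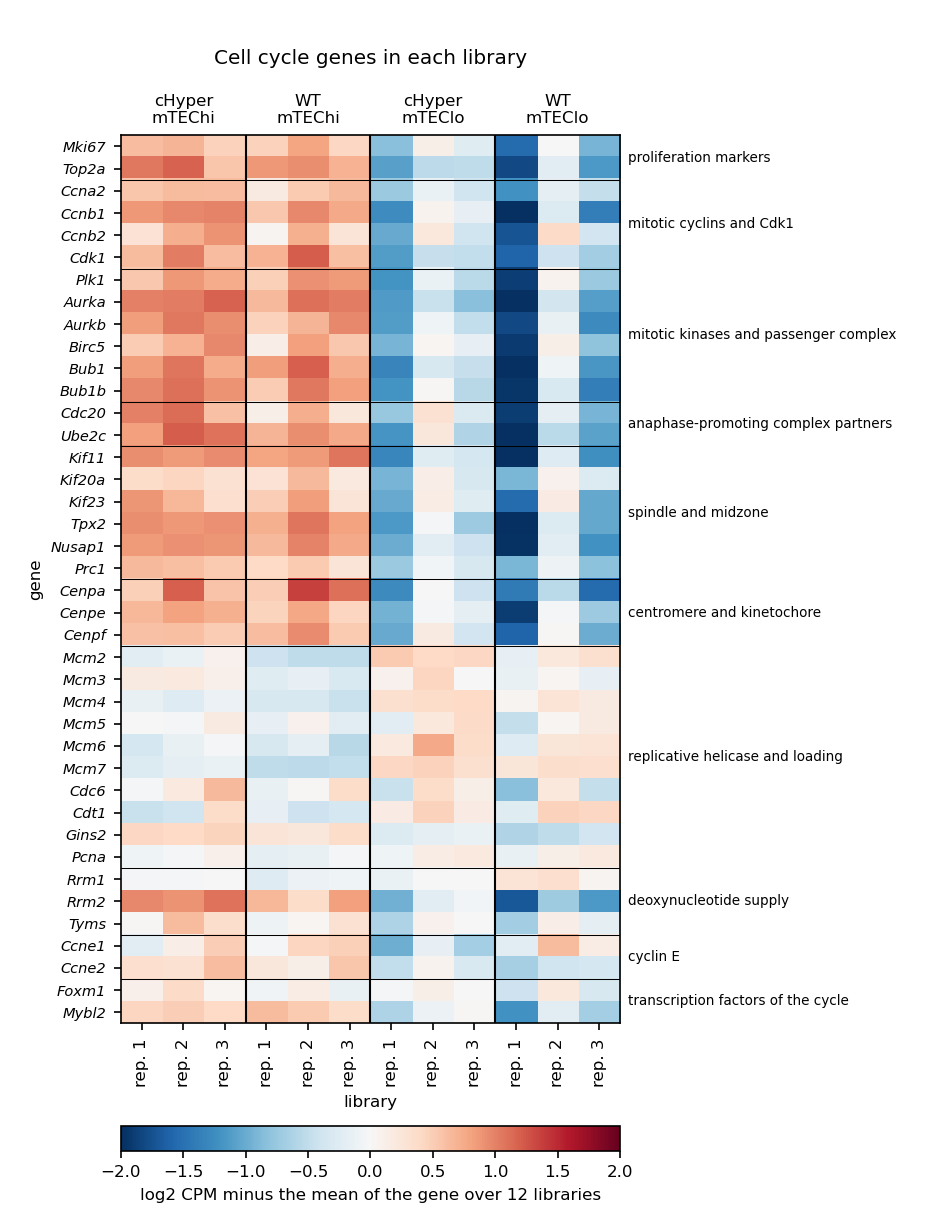
Each row is 1 gene, each column 1 library, and the colour gives log2 CPM minus the mean of the gene over the 12 libraries. The 23 mitosis genes, in the upper rows, are mostly red in the 6 mTEChi libraries and mostly pale to blue in the 6 mTEClo libraries. Ccnb2 departs from this in WT, with 11.7 CPM in mTEClo replicate 2, against 9.34 and 10.8 CPM in mTEChi replicates 1 and 3. Most Mcm genes show the opposite order.

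Among the proliferation markers, Mki67 had 239, 250.4 and 215 CPM in cHyper mTEChi, against 87.5, 170.2 and 132 CPM in cHyper mTEClo. In WT it had 215, 271 and 207 CPM in mTEChi, against 53.9, 156 and 82.1 CPM in mTEClo. Every mTEChi library lay above every mTEClo library of its genotype, and replicate 2 was the highest mTEClo library in both. The rise was 1.81-fold in cHyper (edgeR, adjusted p = 0.0211) and 2.38-fold in WT (edgeR, adjusted p = 0.00184). Top2a, the topoisomerase that untangles sister chromatids, had 171, 186 and 120.5 CPM in cHyper mTEChi, against 38.8, 57.1 and 57.6 CPM in cHyper mTEClo. In WT it had 149, 156 and 134 CPM in mTEChi, against 23.6, 70.5 and 37.2 CPM in mTEClo. These groups were also apart, by 3.11-fold in cHyper (edgeR, adjusted p = 2.15e-04) and 3.34-fold in WT (edgeR, adjusted p = 1.11e-04).

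Cdk1 is the kinase that drives entry into mitosis. It had 40.2, 52.6 and 39.7 CPM in cHyper mTEChi, against 11.9, 18.7 and 18.3 CPM in cHyper mTEClo, and 41.96, 59.8 and 39.4 CPM in WT mTEChi, against 8.48, 19.5 and 16.04 CPM in WT mTEClo. The groups did not overlap in either genotype, and the rise was 2.72-fold in cHyper (edgeR, adjusted p = 2.30e-04) and 3.22-fold in WT (edgeR, adjusted p = 5.13e-05). Its activating cyclin Ccnb1 had 20.1, 21.4 and 21.8 CPM in cHyper mTEChi, against 4.59, 11.6 and 9.81 CPM in cHyper mTEClo. In WT it had 15.98, 21.5 and 18.6 CPM in mTEChi, against 2.65, 9.17 and 4.22 CPM in mTEClo, so both genotypes separated. Ccnb1 rose 2.44-fold in cHyper (edgeR, adjusted p = 0.00597) and 3.46-fold in WT (edgeR, adjusted p = 5.78e-04). Ccna2, the cyclin of S phase and G2, rose 2.01-fold in cHyper and 2.05-fold in WT. The other B-type cyclin, Ccnb2, had 9.34, 14.7 and 10.8 CPM in WT mTEChi, against 2.72, 11.7 and 6.896 CPM in WT mTEClo. Its WT groups overlapped through mTEClo replicate 2, and its log2 difference of 0.71 (95% interval -0.15 to 1.57) was not called (edgeR, adjusted p = 0.129). In cHyper it rose 1.96-fold (edgeR, adjusted p = 0.0458), a call that 10 of 20 other settings kept.

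All 6 mitotic kinases and passenger genes rose at least 2-fold in both genotypes. Aurka, the kinase of centrosome maturation, had 19.6, 19.8 and 22.04 CPM in cHyper mTEChi, against 4.41, 7.13 and 5.42 CPM in cHyper mTEClo. In WT it had 15.2, 20.8 and 19.7 CPM in mTEChi, against 2.27, 7.55 and 4.504 CPM in mTEClo. The lowest mTEChi library was over 2 times the highest mTEClo library in each genotype. Aurka rose 3.62-fold in cHyper (edgeR, adjusted p = 9.89e-05), the largest rise of the 40 genes there, and 3.88-fold in WT (edgeR, adjusted p = 5.65e-05). Plk1, the kinase of spindle assembly and mitotic exit, rose 2.43-fold in cHyper and 2.64-fold in WT. Aurkb and Birc5 belong to the chromosomal passenger complex, and Bub1 and Bub1b to the spindle checkpoint. Aurkb rose 2.72-fold in cHyper and 3.03-fold in WT, Birc5 2.05-fold and 2.24-fold, Bub1 2.91-fold and 3.48-fold, and Bub1b 2.79-fold and 3.59-fold.

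Both partners of the anaphase-promoting complex rose. Cdc20, which activates the complex, rose 2.15-fold in cHyper and 2.33-fold in WT, and Ube2c, its ubiquitin-conjugating enzyme, rose 2.72-fold and 3.796-fold. All 6 spindle and midzone genes rose as well. Kif11, the motor that separates the spindle poles, rose 2.79-fold in cHyper and 3.72-fold in WT. Tpx2, which activates Aurora A on the spindle, and Nusap1, a microtubule bundler, rose 2.77-fold and 2.64-fold in cHyper, and 3.54-fold and 3.35-fold in WT. The midzone genes Kif20a, Kif23 and Prc1 had the smaller rises, from 1.599-fold to 1.92-fold in cHyper and from 1.63-fold to 2.23-fold in WT. Kif20a shares exonic bases with Cdc23, whose log2 difference was 0.35 in cHyper and 0.46 in WT, below the 0.68 and 0.71 of Kif20a.

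Cenpa is the histone H3 variant that marks centromeres. It had 9.61, 15.9 and 10.3 CPM in cHyper mTEChi, against 2.86, 6.87 and 5.17 CPM in cHyper mTEClo, and 9.700, 17.9 and 14.9 CPM in WT mTEChi, against 2.598, 4.77 and 2.39 CPM in WT mTEClo. Replicate 2 was the highest library in every group, and the groups stayed apart. Cenpa rose 2.41-fold in cHyper (edgeR, adjusted p = 0.00413) and 4.28-fold in WT (edgeR, adjusted p = 8.06e-05), the largest rise of the 40 genes in WT. The kinetochore genes Cenpe, a motor, and Cenpf rose 2.099-fold and 1.86-fold in cHyper, and 2.39-fold and 2.64-fold in WT.

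**Figure D2:**
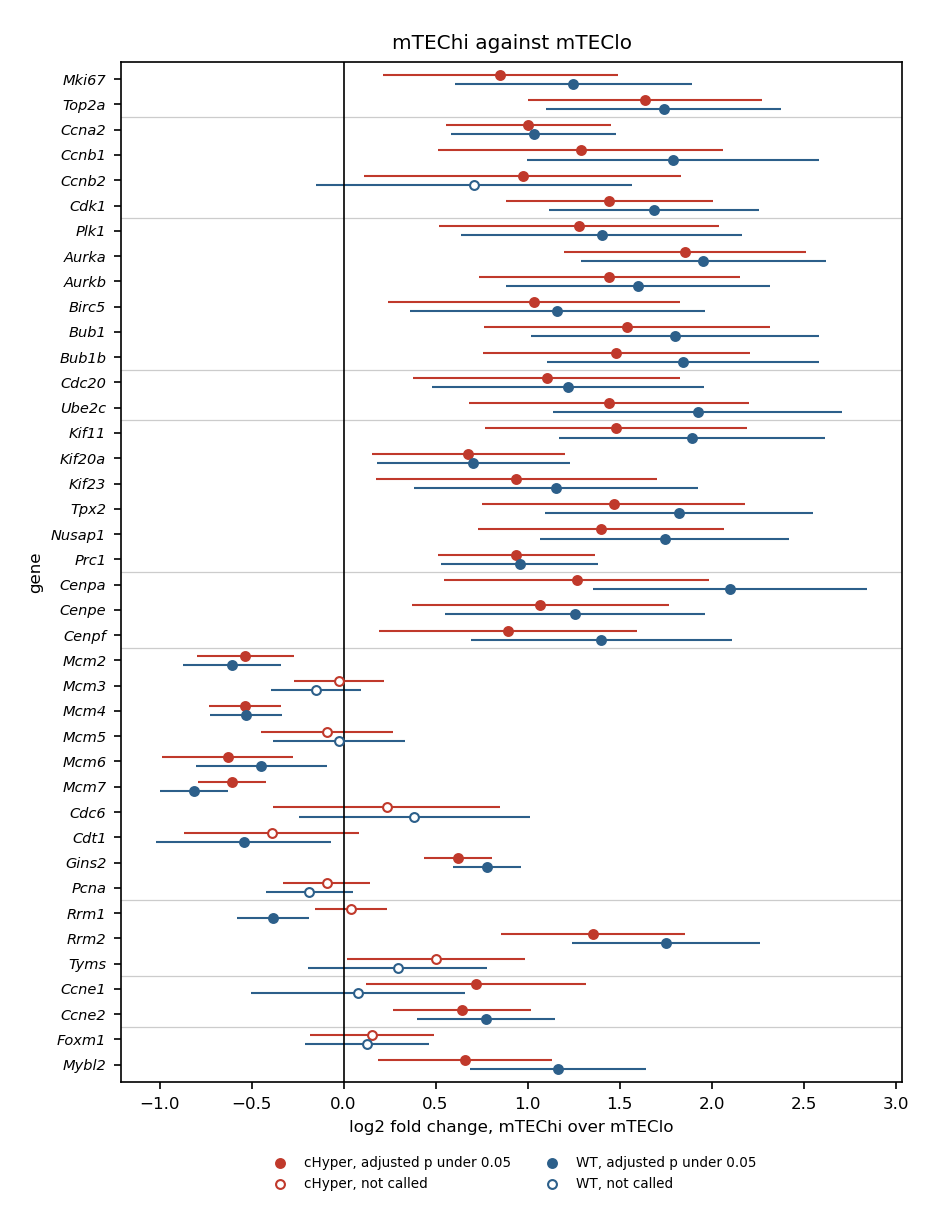
Points give the log2 fold change of mTEChi over mTEClo for each of the 40 genes, in cHyper and in WT, with lines for the 95% interval of the edgeR fit, and filled points have an adjusted p under 0.05. The mitosis genes, from Mki67 to Cenpf, lie right of 0, while Mcm2, Mcm4, Mcm6 and Mcm7 lie left of 0 in both genotypes.

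Most S phase genes that fell belong to the replicative helicase or its loading. This role was counted over 10 genes, among them the sliding clamp Pcna. Of the 10, 4 fell, 1 rose and 5 were not called in cHyper mTEChi, where 25.8% of all tested genes fell. In WT mTEChi 5 fell, 1 rose and 4 were not called, where 29.4% of all tested genes fell. Mcm2, Mcm4, Mcm6 and Mcm7 fell in both genotypes. Mcm2 had 26.7, 28.7 and 33.02 CPM in cHyper mTEChi, against 44.8, 41.4 and 41.5 CPM in cHyper mTEClo, and 23.4, 22.1 and 22.1 CPM in WT mTEChi, against 28.04, 36.2 and 38.9 CPM in WT mTEClo. No library overlapped, and Mcm2 was 1.45-fold lower in cHyper mTEChi (edgeR, adjusted p = 0.00153) and 1.52-fold lower in WT mTEChi (edgeR, adjusted p = 5.04e-04).

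Mcm7 had 30.3, 31.9 and 33.3 CPM in cHyper mTEChi, against 48.99, 50.6 and 46.01 CPM in cHyper mTEClo, and 25.9, 25.6 and 26.1 CPM in WT mTEChi, against 43.5, 46.7 and 46.1 CPM in WT mTEClo. Its libraries within a group were close together. Mcm7 was 1.52-fold lower in cHyper mTEChi (edgeR, adjusted p = 2.22e-05) and 1.76-fold lower in WT mTEChi (edgeR, adjusted p = 1.01e-06), the smallest p of the 40 genes in WT. Ap4m1, on the opposite strand over 7.25% of the exonic bases of Mcm7, had log2 differences of -0.56 in cHyper and -0.81 in WT, close to the -0.61 and -0.81 of Mcm7. Whether shared fragments add to that was not tested.

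Mcm4 had 38.7, 35.8 and 39.4 CPM in cHyper mTEChi, against 53.5, 55.2 and 56.5 CPM in cHyper mTEClo, and 34.3, 34.2 and 31.5 CPM in WT mTEChi, against 44.2, 51.5 and 48.6 CPM in WT mTEClo. It was 1.45-fold lower in cHyper mTEChi (edgeR, adjusted p = 1.20e-04) and 1.44-fold lower in WT mTEChi (edgeR, adjusted p = 1.14e-04), with no overlap. Mcm6 was 1.55-fold lower in cHyper and 1.36-fold lower in WT, where its libraries overlapped. The other subunits of the hexamer, Mcm3 and Mcm5, were not called. Their log2 differences were -0.025 (95% interval -0.27 to 0.22) and -0.089 (-0.45 to 0.27) in cHyper, and -0.15 (-0.397 to 0.096) and -0.026 (-0.39 to 0.33) in WT. With library totals all 4 of these differences were above 0. Cdt1, the loader of the helicase, was 1.46-fold lower in WT mTEChi (edgeR, adjusted p = 0.0411), a call that 11 of 20 other settings kept, and its log2 difference in cHyper was -0.39 (-0.87 to 0.083).

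Gins2 was the member of this role that rose. It had 113, 113 and 116 CPM in cHyper mTEChi, against 70.2, 74.3 and 77.7 CPM in cHyper mTEClo, and 102, 99.1 and 109 CPM in WT mTEChi, against 55.8, 59.95 and 64.97 CPM in WT mTEClo. The groups were apart, by 1.54-fold in cHyper (edgeR, adjusted p = 1.81e-05) and 1.72-fold in WT (edgeR, adjusted p = 1.53e-06). Gse1, which covers most of its exonic bases from the other strand, moved alongside. Gse1 had 207, 200.5 and 197 CPM in cHyper mTEChi, against 118, 117 and 119.8 CPM in cHyper mTEClo, and 195, 186 and 182 CPM in WT mTEChi, against 89.1, 95.9 and 98.9 CPM in WT mTEClo. The part that fragments of Gse1 have in the Gins2 result was not tested.

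Deoxynucleotide supply was split within a single enzyme. Rrm2, the small subunit of ribonucleotide reductase, had 47.3, 45.6 and 51.9 CPM in cHyper mTEChi, against 12.5, 20.8 and 23.4 CPM in cHyper mTEClo, and 38.4, 31.5 and 42.8 CPM in WT mTEChi, against 7.54, 14.8 and 11.03 CPM in WT mTEClo. It rose 2.56-fold in cHyper (edgeR, adjusted p = 1.36e-04) and 3.37-fold in WT (edgeR, adjusted p = 1.23e-05), with no overlap. Rrm1, the large subunit, had 69.6, 69.3 and 70.9 CPM in cHyper mTEChi, against 64.1, 70.2 and 70.00 CPM in cHyper mTEClo, and 59.1, 65.01 and 66.4 CPM in WT mTEChi, against 85.5, 88.7 and 73.7 CPM in WT mTEClo. In cHyper the libraries of Rrm1 overlapped and its log2 difference was 0.038 (-0.16 to 0.23), while in WT it was 1.303-fold lower in mTEChi (edgeR, adjusted p = 0.001804). Tyms, thymidylate synthase, was not called in either genotype, with log2 differences of 0.503 in cHyper (edgeR, adjusted p = 0.0646) and 0.29 in WT (edgeR, adjusted p = 0.263). In cHyper it was called in 8 of 20 other settings, the replicate block among them.

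The cyclins E activate CDK2 at the start of S phase. Ccne2 had 12.6, 12.4 and 15.3 CPM in cHyper mTEChi, against 7.11, 10.5 and 8.103 CPM in cHyper mTEClo, and 11.7, 10.8 and 14.6 CPM in WT mTEChi, against 6.31, 7.55 and 7.83 CPM in WT mTEClo. It rose 1.56-fold in cHyper (edgeR, adjusted p = 0.00475) and 1.71-fold in WT (edgeR, adjusted p = 0.001203), and its groups were apart in both. Ints8, which shares part of its exons, had log2 differences of -0.12 in cHyper and 0.039 in WT. Ccne1 had 3.36, 4.29 and 5.55 CPM in cHyper mTEChi, against 1.99, 3.49 and 2.44 CPM in cHyper mTEClo, and 3.86, 5.28 and 5.48 CPM in WT mTEChi, against 3.35, 6.06 and 4.36 CPM in WT mTEClo. Its groups overlapped in both genotypes. It rose 1.65-fold in cHyper (edgeR, adjusted p = 0.0351), a call that 13 of 20 other settings kept, and in WT its log2 difference was 0.080 (-0.503 to 0.66).

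The 2 transcription factors parted. Mybl2, which activates late cell cycle genes together with the MuvB core, had 9.04, 9.46 and 8.92 CPM in cHyper mTEChi, against 4.41, 6.21 and 6.84 CPM in cHyper mTEClo. In WT it had 10.4, 9.68 and 8.73 CPM in mTEChi, against 2.91, 5.74 and 4.22 CPM in mTEClo. It rose 1.58-fold in cHyper (edgeR, adjusted p = 0.0169) and 2.24-fold in WT (edgeR, adjusted p = 3.08e-04), and the groups did not overlap. Foxm1 had 27.9, 33.9 and 26.9 CPM in cHyper mTEChi, against 25.2, 28.3 and 26.2 CPM in cHyper mTEClo, and 24.8, 28.9 and 23.4 CPM in WT mTEChi, against 19.5, 30.3 and 20.9 CPM in WT mTEClo. Its libraries overlapped in both genotypes, with log2 differences of 0.15 (95% interval -0.18 to 0.49) in cHyper and 0.13 (-0.21 to 0.46) in WT, neither called (edgeR, adjusted p = 0.404 and 0.493).

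These counts depend on few libraries and on the scaling. Without cHyper mTEClo replicate 1, 18 of the 40 genes rose in cHyper mTEChi in place of 28. With scaling by library totals the median of all genes shifted up by 0.17 in cHyper and 0.22 in WT, and the S phase median became 0.14 in cHyper and 0.065 in WT. Relative to that shift the S phase genes stayed below the other genes, and 3 of the 40, namely Mcm2, Mcm4 and Mcm7, fell in WT in place of 6. Mcm2, Mcm4 and Mcm7 fell in both genotypes under all 20 other settings.

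The mitosis genes varied much more between mTEClo libraries than between mTEChi libraries. The median over the 23 genes of the highest library divided by the lowest was 1.16 in cHyper mTEChi, 1.37 in WT mTEChi, 2.07 in cHyper mTEClo and 3.27 in WT mTEClo. Over the 12214 genes with a mean in the same range, 8.58 to 173 CPM, this ratio had a median from 1.18 to 1.21 in the 4 groups. The S phase genes had medians from 1.16 to 1.39. Replicate 1 was the lowest library for 23 of 23 mitosis genes in cHyper mTEClo and for 22 of 23 in WT mTEClo. Replicate 2 was the highest for 22 of 23 in cHyper mTEClo and for 23 of 23 in WT mTEClo.

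Thymocyte markers followed part of this order. The 23 mitosis genes summed to 344, 655 and 519 CPM in replicates 1, 2 and 3 of cHyper mTEClo, against 224, 625 and 365 CPM in WT mTEClo. In mTEChi they summed to 1124, 1205 and 1052 CPM in cHyper, against 976, 1218 and 1011 CPM in WT. The 15 thymocyte markers, genes of developing T cells, which divide, summed to 39.8, 59.3 and 65.2 CPM in cHyper mTEClo, against 25.1, 48.6 and 30.3 CPM in WT mTEClo. They reached 163 to 179 CPM in cHyper mTEChi, against 144 to 171 CPM in WT mTEChi, of which Tcf7 alone gave 75.7 to 85.4 and 70.9 to 88.4 CPM. Rag1, a recombinase subunit of immature T cells, had 17.6, 16.9 and 27.8 CPM in cHyper mTEChi, against 6.901, 12.5 and 17.7 CPM in cHyper mTEClo, and 11.5, 13.6 and 11.2 CPM in WT mTEChi, against 0.543, 7.36 and 2.44 CPM in WT mTEClo. Ptcra was at 0 in WT mTEClo replicate 1, and no other marker of the list was at 0 in any library. Other markers of the list did not follow the order. In WT mTEClo, Lck had 9.07, 8.59 and 8.91 CPM in replicates 1, 2 and 3, and Themis had 3.87, 3.75 and 4.03 CPM. In cHyper mTEClo, replicate 1 was the highest for Ptcra, with 0.480, 0.184 and 0.163 CPM, and for Lef1, with 6.88, 6.55 and 3.71 CPM.

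Lists of markers of other cells differed between the cell types too. The 10 myeloid and dendritic cell markers summed to 504 to 556 CPM in cHyper mTEChi, against 29.9 to 48.9 CPM in cHyper mTEClo, and to 499 to 673 CPM in WT mTEChi, against 31.7 to 35.7 CPM in WT mTEClo. Between mTEChi and mTEClo, 8 of the 15 thymocyte markers rose in cHyper and 11 in WT, and 10 of the 10 myeloid and dendritic markers rose in each. The 5 B cell markers and the 4 endothelial markers all rose in each genotype. Of 6 fibroblast markers, 4 rose and 2 fell in cHyper, and 3 rose and 1 fell in WT, and of 4 cortical epithelial markers 2 rose and 2 fell in cHyper, and 2 rose and 1 fell in WT. Of all tested genes, 38.7% rose and 25.8% fell in cHyper, and 40.2% rose and 29.4% fell in WT. The part of such cells, or of expression of these genes by mTECs themselves, in the higher mitosis genes was not tested.

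**Figure D3:**
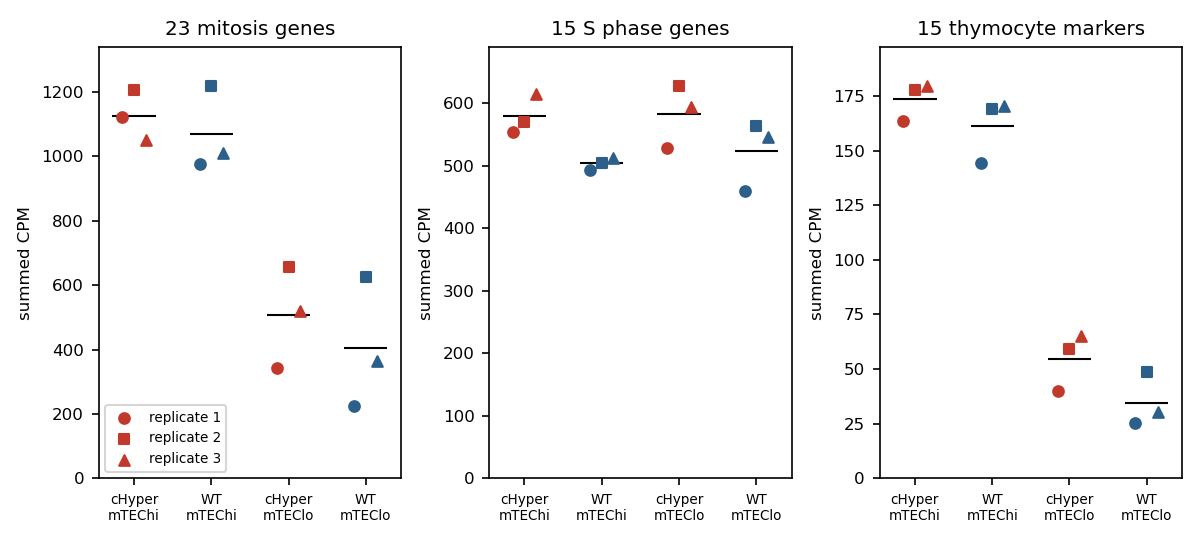
Points give the summed CPM of the 23 mitosis genes, the 15 S phase genes and the 15 thymocyte markers in each library, by replicate number, with a bar at the mean of each group. The mitosis sum of mTEClo runs from 224 to 655 CPM with replicate 1 lowest and replicate 2 highest in both genotypes, and the thymocyte sum is also lowest in replicate 1.

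The comparison of cHyper with WT asks whether the cycle genes differ with the Trp53 genotype. In mTEClo, 1 of the 40 genes was called: Gins2 was 1.23-fold higher in cHyper (edgeR, adjusted p = 0.0443), where 4.53% of all tested genes were higher and 4.64% lower. That call held in 3 of 20 other settings, and Gse1, across from it, was also higher, with a log2 difference of 0.32 (edgeR, adjusted p = 0.0197). In mTEChi, edgeR called 0 of the 40 genes, where 1.56% of all tested genes were higher and 0.418% lower. That split of calls, 78.8% of them higher, became 66.0% with DESeq2 size factors and 64.4% with library totals. At an unadjusted p under 0.05 there were 7 of 40 genes in mTEClo, against 23.1% of all tested genes, and 3 of 40 in mTEChi, against 14.98%. In mTEChi the DESeq2 test called 1 gene, Mcm7, where it called 715 of all genes higher and 740 lower. The fit with replicate number as a block called 2 genes in mTEChi, Mcm3 and Mcm7, which reach log2 differences of 0.398 and 0.299 without the block. Of all tested genes, the block called 942 higher and 309 lower there.

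Small differences leaned to cHyper in mTEClo without passing the test. The log2 difference was above 0 for 38 of the 40 genes in mTEClo, with a median of 0.29, and for 32 of 40 in mTEChi, with a median of 0.14. All tested genes had medians of 0.0015 in mTEClo and -0.0037 in mTEChi. In mTEClo this rests on the WT libraries that stand apart: the median of the 23 mitosis genes was 0.35 with all libraries, 0.028 when WT mTEClo replicate 1 was left out and 0.93 when replicate 2 of that group was left out. In that last fit edgeR called 9 of the 40 genes higher in cHyper mTEClo, 8 of them genes of mitosis. The thymocyte markers had a median log2 difference of 0.93 in mTEClo and 0.33 in mTEChi, with 0 of 15 called in either by edgeR. The 4 cortical markers had medians of 0.40 in mTEClo and 0.28 in mTEChi, the 4 endothelial markers -1.12 and -0.54, the 10 myeloid and dendritic markers -0.22 and -0.33, and the 5 B cell markers -0.076 and 0.063. The 6 fibroblast markers summed to 65.2 to 116 CPM in cHyper mTEClo, against 34.2 to 38.3 CPM in WT mTEClo, with 2 called higher and 1 lower and a median of -0.43. The part of such cells in the lean was not tested. Cdkn1a, which encodes p21, had 92.5 to 109.6 CPM in cHyper mTEChi, against 152 to 182 CPM in WT mTEChi. In mTEClo it had 28.5 to 32.1 CPM in cHyper, against 48.7 to 66.9 CPM in WT. The cHyper libraries of Cdkn1a lay wholly below the WT libraries in both cell types, as for 12.6% of all tested genes in mTEClo. That share was not computed in mTEChi, and any link of Cdkn1a to the lean was not tested.

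**Figure D4:**
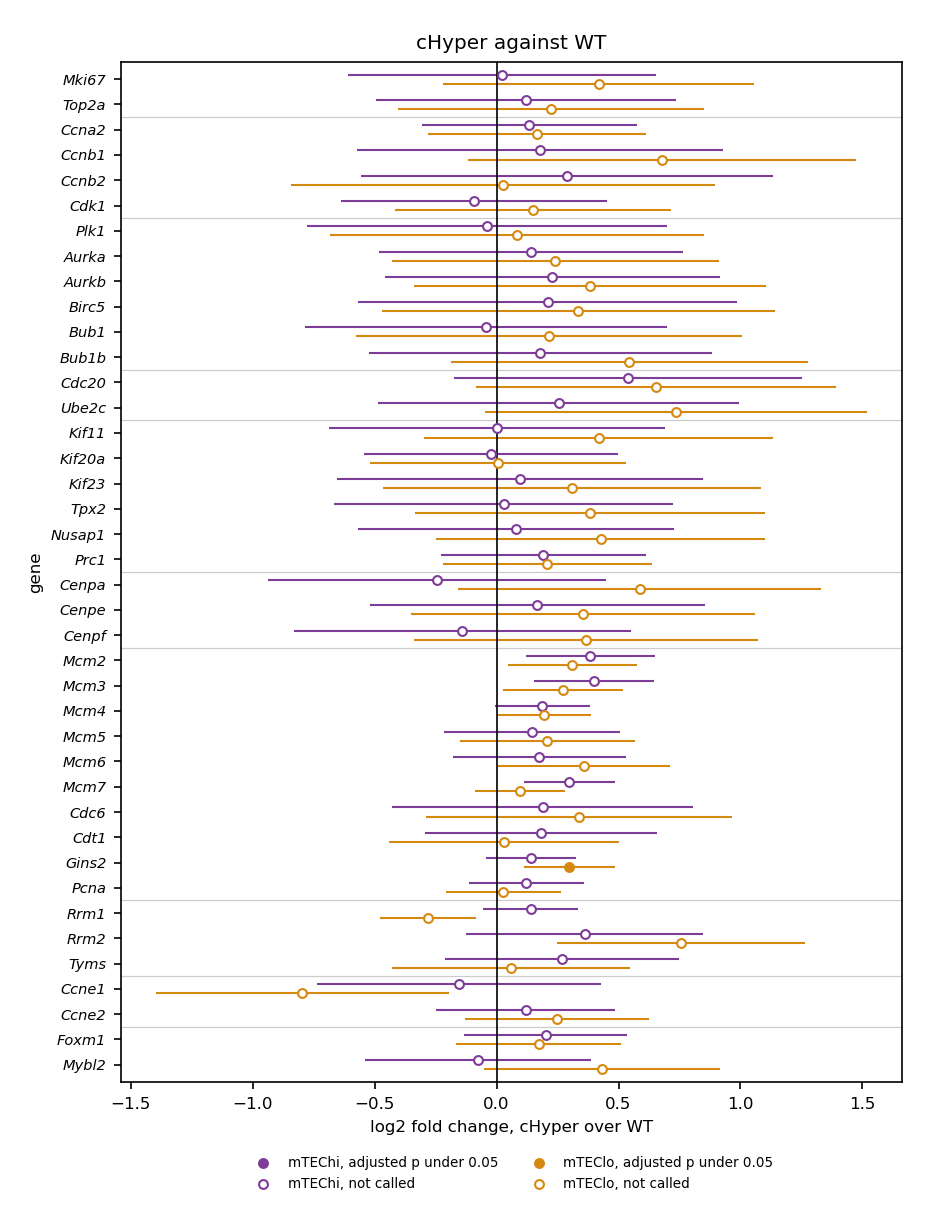
Points give the log2 fold change of cHyper over WT for each of the 40 genes, in mTEChi and in mTEClo, with lines for the 95% interval of the edgeR fit, and the filled point has an adjusted p under 0.05. Gins2 in mTEClo is the one filled point, and the intervals of the 23 mitosis genes all include 0 in both cell types.

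The genotype intervals of the mitosis genes were wide. They come from the fit without replicate number as a block, and intervals with the block are not given. Mki67 differed by a log2 of 0.42 (-0.22 to 1.06) in mTEClo and 0.022 (-0.61 to 0.65) in mTEChi, and Cdk1 by 0.15 (-0.41 to 0.72) and -0.091 (-0.64 to 0.45). For Ccnb1 the log2 difference was 0.68 (-0.12 to 1.47) in mTEClo and 0.18 (-0.57 to 0.93) in mTEChi. Top2a had 0.22 (-0.404 to 0.85) and 0.12 (-0.495 to 0.74) in the same order. In mTEClo a 2-fold rise in cHyper lies inside the interval for Mki67 and Ccnb1. In mTEChi the intervals of Mki67, Top2a, Ccnb1 and Cdk1 end below a 2-fold rise, while those of Ccnb2 (-0.55 to 1.13) and Cdc20 (-0.18 to 1.25) include it. Ccne2 differed by 0.25 (-0.13 to 0.63) in mTEClo and 0.12 (-0.25 to 0.49) in mTEChi. The factors differed by 0.17 (-0.16 to 0.51) and 0.201 (-0.13 to 0.54) for Foxm1, and by 0.43 (-0.052 to 0.92) and -0.074 (-0.54 to 0.39) for Mybl2.

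The S phase genes had narrower intervals, and several genotype groups did not overlap. Mcm3 had 39.2, 39.8 and 37.4 CPM in cHyper mTEChi, against 29.2, 30.9 and 28.2 CPM in WT mTEChi, and 36.9, 46.7 and 34.7 CPM in cHyper mTEClo, against 31.3, 35.7 and 31.1 CPM in WT mTEClo. The mTEChi groups were apart and the mTEClo groups overlapped, and the gene was not called in either (edgeR, adjusted p = 0.104 and 0.168). In mTEChi, 7 of the 40 genes, all of S phase, had cHyper libraries wholly above WT libraries: Mcm2, Mcm3, Mcm4, Mcm7, Gins2, Rrm1 and Rrm2. Such genes made up 12.4% of all tested genes on that side. In mTEClo, Mcm2, Mcm4 and Gins2 were wholly above, against 11.8% of all tested genes, and Rrm1 was wholly below, against 12.6%.

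With the genotype difference averaged over both cell types, 4 of the 40 genes were higher in cHyper and 0 lower, where 5.84% of all tested genes were higher and 4.49% lower. Mcm2 rose 1.27-fold (edgeR, adjusted p = 0.0202), Mcm3 1.26-fold (adjusted p = 0.0166), Gins2 1.16-fold (adjusted p = 0.0338) and Rrm2 1.47-fold (adjusted p = 0.0437). All 4 are S phase genes. Mcm2 and Mcm3 kept the call in 15 and 18 of 19 other settings, and Gins2 and Rrm2 in 6 each. Scaling by DESeq2 size factors or by library totals left Mcm2 and Mcm3 as the 2 called genes, and under them 46.7% and 45.4% of all calls were higher in cHyper, against 56.6% with the main scaling. Of the mitosis genes, 0 of 23 were called in this average by edgeR, and 1 of 23, Cdc20, had an unadjusted p under 0.05, with a log2 difference of 0.597 (edgeR, adjusted p = 0.135). Cdc20 was called without the filter on low counts and with replicate number as a block. That block called 7 genes higher, which adds Cdc20, Mcm4 and Mcm7, and 1 lower, Ccne1. Over all tested genes the block called 2781 higher and 1863 lower, against 1691 and 1298 in the main fit. Leaving out WT mTEClo replicate 2 gave 8 called genes, where 1513 of all genes tested were higher and 1199 lower.

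In the other direction, 2 S phase genes pointed down in cHyper mTEClo. Ccne1 had a log2 difference of -0.796 (-1.39 to -0.197) in mTEClo, which was not called (edgeR, adjusted p = 0.0949), and -0.16 (-0.74 to 0.43) in mTEChi. Rrm1 had -0.28 (-0.48 to -0.084) in mTEClo, also not called (edgeR, adjusted p = 0.0728), and 0.14 (-0.056 to 0.34) in mTEChi. Rrm2 pointed up, with 0.76 (0.25 to 1.26) in mTEClo (edgeR, adjusted p = 0.0615) and 0.36 (-0.13 to 0.85) in mTEChi. The genotype difference in mTEChi minus that in mTEClo was called for 0 of the 40 genes by edgeR, against 2.06% of all tested genes, and 1 gene, Rrm1, had an unadjusted p under 0.05. The mTEChi rise of 22 of the 23 mitosis genes was smaller in cHyper than in WT, with a median of the difference of -0.21, and no single difference was called. That median turned to 0.11 without WT mTEClo replicate 1 and to 0.0049 without cHyper mTEClo replicate 2, and it was -0.80 without WT mTEClo replicate 2. Each of these fits leaves the replicate numbers unbalanced between the groups.

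Other genes of the cycle were grouped in 7 lists of 153 genes. Between the cell types, 76 of the 153 rose and 19 fell in cHyper mTEChi (49.7% and 12.4%), against 38.7% and 25.8% of all tested genes. In WT mTEChi 74 rose and 24 fell (48.4% and 15.7%), against 40.2% and 29.4%. Of 21 other kinetochore and spindle checkpoint genes, 17 rose and 0 fell in cHyper mTEChi, and 15 rose and 0 fell in WT mTEChi. Cenpi, a subunit of the constitutive centromere complex, rose by a log2 of 1.41 in cHyper and 1.91 in WT. Of 32 other spindle, cytokinesis and mitotic exit genes, 27 rose and 0 fell in each genotype. Cdc25c, the phosphatase that activates Cdk1, rose by 2.95 and 2.91, the chromokinesin Kif4 by 1.49 and 1.92, and the kinase Melk by 1.77 and 2.28, in cHyper and WT in that order. The median log2 difference was 0.88 and 1.02 for the first list and 1.18 and 1.39 for the second, against 0.13 and 0.12 for all tested genes.

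Of 15 condensin and cohesin genes, 7 rose and 3 fell in cHyper mTEChi (46.7% and 20%), and 8 rose and 3 fell in WT mTEChi (53.3% and 20%), not far from the shares of all tested genes given above. The condensin subunits Ncaph and Ncapg rose by a log2 of 1.27 and 1.403 in cHyper and 1.66 and 2.03 in WT. The cohesin subunits Stag1, Smc3 and Smc1a were the genes that fell, by 1.15, 0.55 and 0.52 in cHyper and by 1.098, 0.695 and 0.63 in WT. Cohesin also serves chromatin looping in cells that do not divide.

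Of 37 other origin and fork genes, 13 rose and 6 fell in cHyper mTEChi (35.1% and 16.2%), and 12 rose and 7 fell in WT mTEChi (32.4% and 18.9%). Both shares lie below those of all tested genes in each genotype. Pole, the catalytic subunit of polymerase epsilon, and Clspn, claspin, rose by a log2 of 1.51 and 1.48 in cHyper and 1.94 and 2.01 in WT. Pold3, a polymerase delta subunit, and Rfc1, of the clamp loader, fell by 0.56 and 0.78 in cHyper and by 0.696 and 0.77 in WT. Of 13 other nucleotide supply genes, 4 rose and 4 fell in cHyper (30.8% each), and 3 rose and 4 fell in WT (23.1% and 30.8%). Shmt1, a folate enzyme of thymidylate synthesis, rose by 1.07 and 1.41, while Paics, of purine synthesis, and Tk1, thymidine kinase, fell by 0.76 and 0.83 in cHyper and by 0.91 and 0.73 in WT.

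Of 20 G1 cyclins, kinases, E2F partners and pocket proteins, 3 rose and 5 fell in cHyper mTEChi (15% and 25%), and 2 rose and 8 fell in WT mTEChi (10% and 40%). The share that fell in cHyper is that of all tested genes, 25.8%. Ccnd2, a D-type cyclin, rose by a log2 of 1.33 in cHyper and 1.91 in WT, and Tfdp1, an E2F partner, by 1.09 and 1.67. The related partner Tfdp2 fell by 1.34 and 1.45, and Cdk4, the kinase of the D-type cyclins, by 0.79 and 0.83. Of 15 checkpoint and recombination genes, 5 rose and 1 fell in cHyper (33.3% and 6.67%), and 7 rose and 2 fell in WT (46.7% and 13.3%). Fancd2, of the Fanconi anaemia pathway, rose by 2.700 in cHyper and 3.702 in WT.

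Between the genotypes, 10 of the 153 genes were higher in cHyper mTEClo and 2 lower (6.54% and 1.31%), against 4.53% and 4.64% of all tested genes. In mTEChi 2 were higher and 0 lower (1.31% higher), against 1.56% of all tested genes higher. In mTEClo, 4 of the 13 other nucleotide supply genes were higher in cHyper and 0 lower. Cad, which starts pyrimidine synthesis, was higher by a log2 of 0.997 in mTEClo (edgeR, adjusted p = 6.86e-06) and 0.75 in mTEChi (edgeR, adjusted p = 4.68e-04). Mthfd1, a folate enzyme, was higher by 0.61 in mTEClo (edgeR, adjusted p = 0.00207) and 0.44 in mTEChi (edgeR, adjusted p = 0.04698), the second call kept in 8 of 20 other settings. Shmt1 was higher by 0.46 and Dtymk, thymidylate kinase, by 0.298 in mTEClo, kept in 15 and 3 of 20 other settings. Cad and Mthfd1 were the 2 genes of the 153 called in mTEChi.

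The other lists had 0 to 2 genes higher each in cHyper mTEClo, from 0% to 10% of a list, around the 4.53% of all tested genes. Of 21 other kinetochore genes, 1 was higher, Spc25 of the NDC80 complex, by a log2 of 1.21 (edgeR, adjusted p = 0.007502). Among 20 G1 genes, Tfdp1 was higher by 0.66 and Ccnd2 by 0.55, and E2f5, a repressor of the E2F family, was lower by 0.42, the last kept in 7 of 20 other settings. Of the 15 checkpoint genes, Brca1 was higher by 0.56 and Atrip, the partner of the kinase ATR, lower by 0.78. Hells, a chromatin remodeller, was the 1 gene called of 37 in the replication list, higher by 0.504. Of 15 condensin and cohesin genes, Ncapg2 was higher by 0.49, kept in 8 of 20 other settings, and of the 32 other spindle and mitotic exit genes 0 were called by edgeR, with 2 at an unadjusted p under 0.05.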

How the data were processed

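Poly(A) RNA of 12 libraries was analysed, 3 in each of 4 groups, from 20 sequenced samples: replicates 1 and 2 had more than 1 run, combined by the authors. The deposited values are fragment counts per gene, and TPM made from them by the authors. Per the submitters' processing notes, mm10 was the build, and the tools were featureCounts (Subread 2.0.1), TopHat2 2.1.1 and SAMtools 1.9. Libraries were made with a stranded kit, per the labels' protocols.

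From the deposited counts, edgeR 4.0.16 in R 4.3.3 scaled libraries by TMM, kept 28932 of 51810 genes with filterByExpr by group, and fitted 1 quasi-likelihood model over 12 libraries (8 residual degrees of freedom), with Benjamini-Hochberg adjustment over all tested genes. The deposited TPM served only to order levels between genes. Intervals are 95%, fold changes are ratios of group means in the model, and the script was checked on simulated counts. Counting precision is limited most in replicate 3, the shallowest of each group.

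Alternatives were DESeq2 size factors, library totals, no filter, DESeq2 1.42.0, limma-voom 3.58.1, a replicate block, compared groups only, replicates 1 and 2 only, and each library left out. Deviations of same-numbered libraries correlated at 0.167, 0.136 and 0.206 for cHyper against WT in mTEChi, and at 0.111, 0.104 and 0.125 for mTEChi against mTEClo in cHyper, so the numbers were taken to pair the libraries in these 2 comparisons. This pairing comes from the data, not from the labels. The calls and p-values given as main results come from the fit without it. For cHyper against WT in mTEChi, that fit called 451 of all tested genes higher and 121 lower. With replicate number as a block, 942 were called higher and 309 lower.

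The 40 genes, the 153 further cycle genes and the 54 marker genes were chosen with earlier results of these data known. Genes given in full were, per comparison, the called members with the 6 smallest p-values, with Mki67, Top2a, Ccnb1, Cdk1, Mcm2, Ccne1, Ccne2, Foxm1 and Mybl2 always given, and up to 4 called genes of each further list. Ccnb2, Mcm3 and Rrm1 were given in full after their values were seen.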

Additional observations from a re-analysis of the deposited data

Results flagged for a closer look

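Atrip, which encodes the partner of the checkpoint kinase ATR and belongs to the 153 further cycle genes, was flagged because the genotype difference was not the same in the 2 cell types. In mTEChi the log2 difference of cHyper over WT was 0.091 (edgeR, adjusted p = 0.744), and in mTEClo it was -0.78 (edgeR, adjusted p = 4.37e-04). The difference between them was 0.87 (edgeR's test of the interaction, adjusted p = 0.0102), called in 18 of 19 other settings. Exons of Atrip overlap those of Trex1 on the same strand over 16.0% of its exonic bases, and the part of Trex1 in these values was not tested.

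Rrm1 was flagged because its cHyper libraries lay wholly above the WT libraries in mTEChi and wholly below them in mTEClo. The difference between the 2 genotype differences was 0.42, with an adjusted p of 0.127 in edgeR's test of the interaction, so it did not pass the threshold. The smallest mTEClo gap was between 73.7 CPM in WT replicate 3 and 70.2 CPM in cHyper replicate 2.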

How the results depend on the processing

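Each result was recomputed under 20 other settings. Of 4162 values for single genes, 3797 kept their direction and side of the threshold, 267 lost the call, 36 gained one and 62 changed direction. Of 590 counts and medians, 541 stayed within 1.5 times the main count or within 1 SD between replicates of the main median. That SD was 0.395 for the 40 genes, 0.484 for the mitosis genes and 0.105 for the S phase genes. The first 2 exceed the genotype medians in mTEClo, 0.29 over the 40 genes and 0.35 over the mitosis genes. Staying within them does not show that those medians were stable. The causes of the changes were not tested. In mTEClo, the genotype comparison called 0 genes higher with DESeq2 size factors, library totals, replicates 1 and 2 only or the compared groups only, 2 higher and 2 lower with the DESeq2 test, and 1 lower with no filter or replicates 1 and 2 only. In mTEChi it called 1 higher with the DESeq2 test or the compared groups only, and Mki67 became -0.034, -0.045 and -0.034 with DESeq2 size factors, library totals and the DESeq2 test. For mTEChi against mTEClo in WT, library totals gave 3 genes lower and an S phase median of 0.065, and Ccne1 became -0.095 with replicates 1 and 2 only. There Mcm3 became 0.065 with library totals, and Mcm5 0.065, 0.18, 0.063, 0.011, 0.11 and 0.014 with DESeq2 size factors, library totals, the DESeq2 test, limma-voom, replicates 1 and 2 only and the compared groups only. In cHyper, library totals gave an S phase median of 0.14 and 0.071 for Mcm5, and Mcm3 became 0.028, 0.14 and 0.028 with DESeq2 size factors, library totals and the DESeq2 test. For the difference between the genotype differences, Foxm1 became -0.014, -0.022 and -0.014 with DESeq2 size factors, library totals and the DESeq2 test, while with replicates 1 and 2 only Top2a became 0.22, Mcm2 -0.12 and the S phase median -0.079. In the averaged comparison 2 genes were higher with DESeq2 size factors or library totals and 1 with replicates 1 and 2 only, and Cdk1 became -0.0049, -0.012, -0.0049 and -0.010 under DESeq2 size factors, library totals, the DESeq2 test and replicates 1 and 2 only.

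The replicate block gave 2 genes higher and 2 lower for the genotype in mTEClo, 2 higher in mTEChi, and 7 higher and 1 lower in the average. Over all tested genes it called 2031 higher and 1885 lower in mTEClo, 942 and 309 in mTEChi, and 2781 and 1863 in the average. Same-numbered libraries correlated at as little as 0.097 for the genotype in mTEClo and 0.093 for mTEChi against mTEClo in WT. There the numbers were not taken to pair the libraries, although every library correlated best with its own number. These values lie just below the 0.104 taken as pairing for mTEChi against mTEClo in cHyper, so the correlations do not settle the pairing in mTEClo or in WT. Each of the 32 calls between the cell types in each genotype was kept under the block.

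Leaving out each of the 12 libraries in turn gave these ranges. In mTEClo, 0 to 9 genes were higher and 0 to 1 lower in cHyper, the median of the 40 genes was 0.057 to 0.68 and of the mitosis genes 0.028 to 0.93, Cdk1 ran from -0.13 to 0.41 and Top2a from -0.081 to 0.75. In mTEChi, Cdk1 ran from -0.23 to 0.11, Mki67 from -0.052 to 0.15 and Top2a from -0.0014 to 0.28. In the average, 1 to 8 genes were higher and Cdk1 ran from -0.11 to 0.16. For the difference between genotype differences, Ccne2 ran from -0.24 to 0.046, Cdk1 from -0.51 to 0.043, Foxm1 from -0.19 to 0.15, Mcm2 from -0.0097 to 0.20 and Top2a from -0.63 to 0.20, with medians from -0.57 to 0.12 for the 40 genes and -0.80 to 0.11 for mitosis. For mTEChi against mTEClo, 18 to 29 genes rose in cHyper, where Mcm3 ran from -0.15 to 0.11, Mcm5 from -0.27 to 0.0033 and Rrm1 from -0.039 to 0.059, and in WT the median was 0.82 to 1.55, Mcm5 ran from -0.1995 to 0.053, Ccne1 from -0.11 to 0.30 and Foxm1 from -0.0092 to 0.31. Intervals for the genotype difference of mitosis genes in mTEClo reach 1.52 on the log2 scale.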
